A study of Homo sapiens with 2 samples.

Results

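The ubiquitin-specific proteases (USPs) are the most numerous family of deubiquitinases, and their mRNA was followed in control and extract-treated Hep3B hepatoma cells. Members were all gene symbols made of USP, a number and an optional X, without pseudogenes, antisense genes and the USP17L copies, which gave 50 of the 43424 symbols in the count tables. Of these 50 members, 40 had at least 30 counts summed over both libraries and are called measured, 7 had fewer, and 3 (USP6, USP26 and USP51) had 0 counts in both. Hep3B is a widely used line from a human liver carcinoma, and it lacks p53. The control library was made from cells that received dimethyl sulfoxide (DMSO), a common solvent. The treated library was made from cells that received GLE, an extract of Glehnia littoralis, a coastal medicinal plant. Both are labelled wild type, and for the sequenced cells, dose and time were not given in the sources used here.

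A USP is a cysteine protease that cuts ubiquitin from proteins or trims ubiquitin chains. It thereby reverses the work of ubiquitin ligases and can spare a protein from the proteasome, change its place in the cell or end a signal. In liver cells the family is known for acting on growth factor receptors, p53 regulators, histones, lipid enzymes and damaged mitochondria. Many members form close pairs or trios that arose by gene duplication.

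The control library held 5618328 counts and the GLE library 3636351, over 16505 and 16539 genes with a count. Reads came from the 3′ ends of polyadenylated RNA, so counts were expressed as CPM, counts scaled to a common effective library size, without a length correction, and levels are compared only within a gene. With 1 library per group no test between conditions was possible, and culture-to-culture spread is unknown. Each ratio of GLE over control carries an exact Clopper-Pearson 95% interval that covers counting error only. All 9 hepatocyte and hepatoma markers, such as ALB, AFP and TTR, had counts, with summed levels of 13641 CPM (control) and 11561 CPM (GLE). Of 5 endothelial markers, 4 had 0 counts in both libraries, and PECAM1 had 36 and 1. Of 6 immune markers, CD3E had 0, PTPRC had 1 and 3, and LYZ had 2711 and 1540. CD68 had 117 and 96, a ratio of 1.34 (1.01 to 1.77), and CD14 had 37 and 9, a ratio of 0.397 (0.169 to 0.839). The 6 stellate or fibroblast markers had summed levels of 3.98 CPM (control) and 20.1 CPM (GLE). The part of other cells in the results below was not tested.

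As a family the USPs took a slightly larger share of raw counts in GLE, while single members moved apart. On the TMM scale used for the ratios, members summed to 2584 CPM (control) and 2839 CPM (GLE). Members summed to 14931 control counts, 0.266% of the library (Clopper-Pearson 95% interval 0.262 to 0.270), and to 10038 GLE counts, 0.276% (0.271 to 0.281). The median log2 ratio of the 40 measured members was 0.23, beside -0.04 over all 11068 measured genes. A ratio above 1 was found for 25 members, or 62.5%, where 47.3% of all measured genes had one. At least 2-fold higher were 4 members, or 10%, beside 9.54% of all genes, and at least 2-fold lower were 2 members, or 5%, beside 10.5%. Scaled by total counts, or with the trend over transcript GC content removed, the split of 4 higher and 2 lower became 2 higher and 2 lower. Both shares lie near or under the background of all genes. The counting interval lay above 1 for 13 members (32.5%, beside 27.7% of all genes), below 1 for 7 (17.5%, beside 30.1%) and included 1 for 20.

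**Figure D1:**
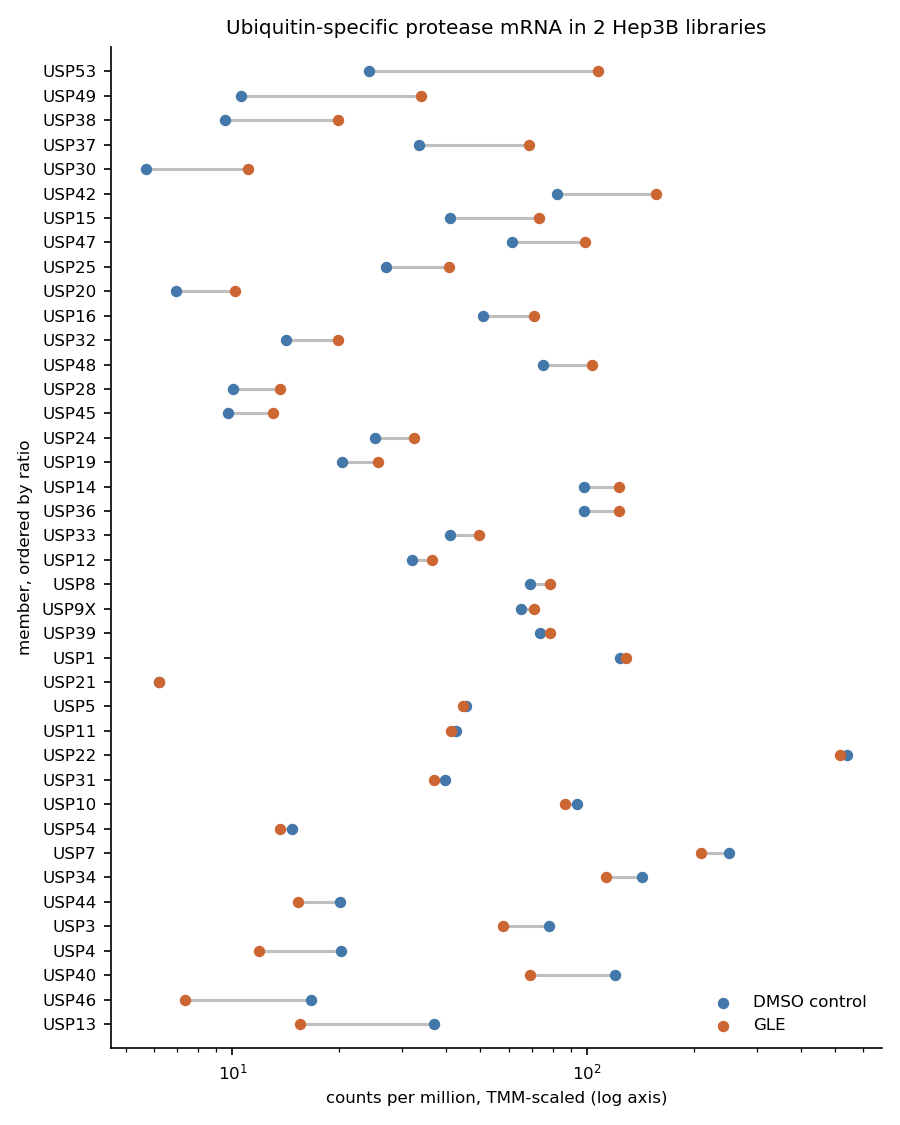
CPM (counts scaled to a common library size, log axis) of the 40 members with at least 30 counts, ordered by ratio, with 1 point for the DMSO control library (blue) and 1 for the GLE library (orange). USP53 spans the widest gap upward, from 24.2 to 107 CPM, and USP13 the widest downward, from 37.0 to 15.6 CPM.

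The members at the top of the order were USP53, USP49, USP38 and USP37, and those at the bottom were USP13 and USP46. USP53 is a tight junction protein whose inherited loss causes cholestasis, and it was long held to lack protease activity. It had 140 control and 379 GLE counts, 24.2 and 107 CPM, a ratio of 4.42 (3.63 to 5.41). USP49, which removes ubiquitin from a core histone, had 61 and 120 counts, 10.6 and 33.9 CPM, a ratio of 3.21 (2.34 to 4.45). These were the only members whose whole interval lay beyond 2-fold, beside 3.82% of all genes above it. USP38, a relative of USP35, had 55 and 70 counts, 9.52 and 19.8 CPM, a ratio of 2.08 (1.44 to 3.02). USP37, which stabilises cyclin A at the start of DNA replication, had 194 and 242 counts, 33.6 and 68.4 CPM, a ratio of 2.04 (1.68 to 2.48). Both sat at the 2-fold line, and their intervals reached under it. In RefSeq on GRCh38.p14, USP53 spans 119212601 to 119295518 and USP38 143184917 to 143223874 on chromosome 4, USP49 spans 41789896 to 41895375 on chromosome 6, and USP37 spans 218450251 to 218568351 on chromosome 2.

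On the lower side, USP13 acts in endoplasmic reticulum quality control and autophagy. It had 214 control and 55 GLE counts, 37.0 and 15.6 CPM, and was 2.38-fold lower (1.76 to 3.26). USP46, which is active with the WD40 protein WDR48, had 96 and 26 counts, 16.6 and 7.35 CPM, and was 2.26-fold lower (1.45 to 3.63). For both, the interval included 2-fold. USP13 spans 179653040 to 179789401 on chromosome 3 and USP46 52590960 to 52659301 on chromosome 4. No member had its whole interval beyond 2-fold lower, a range that held 2.86% of all genes.

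The sequences before the start sites of these members show what their promoters share. RefSeq's table (GRCh38.p14) held at least 1 start for 33 of the 40 measured members, and USP37 was not among them. Each sequence covers up to 250 bases before the most upstream start in the table, on the strand of the gene, without bases inside the annotated gene. Capitals mark exact matches, on either strand, to 3 motifs: the GC box GGGCGG, the CCAAT box CCAAT and the ETS site CCGGAAG.
USP53, higher in GLE, chr4:119212463-119212600, plus strand: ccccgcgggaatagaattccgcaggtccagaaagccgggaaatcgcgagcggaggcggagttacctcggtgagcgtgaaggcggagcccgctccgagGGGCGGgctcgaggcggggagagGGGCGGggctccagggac
USP49, higher in GLE, chr6:41895376-41895625, minus strand: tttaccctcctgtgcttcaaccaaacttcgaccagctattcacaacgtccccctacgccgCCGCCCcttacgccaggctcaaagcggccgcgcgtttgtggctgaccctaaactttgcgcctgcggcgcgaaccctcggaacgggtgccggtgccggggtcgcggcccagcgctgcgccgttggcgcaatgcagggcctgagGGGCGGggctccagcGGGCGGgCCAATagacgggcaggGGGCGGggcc
USP38, higher in GLE, chr4:143184667-143184916, plus strand: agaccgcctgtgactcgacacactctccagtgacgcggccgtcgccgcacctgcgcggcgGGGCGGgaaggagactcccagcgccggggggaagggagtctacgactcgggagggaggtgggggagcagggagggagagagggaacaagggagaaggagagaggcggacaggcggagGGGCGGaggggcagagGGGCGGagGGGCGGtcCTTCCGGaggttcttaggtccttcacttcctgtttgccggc
USP13, lower in GLE, chr3:179652790-179653039, plus strand: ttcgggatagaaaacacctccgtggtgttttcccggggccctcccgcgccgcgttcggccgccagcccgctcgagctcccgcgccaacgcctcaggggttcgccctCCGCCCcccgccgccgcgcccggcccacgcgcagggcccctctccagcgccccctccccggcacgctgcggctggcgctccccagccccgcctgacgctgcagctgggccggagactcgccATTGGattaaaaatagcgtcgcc
USP46, lower in GLE, chr4:52659302-52659551, minus strand: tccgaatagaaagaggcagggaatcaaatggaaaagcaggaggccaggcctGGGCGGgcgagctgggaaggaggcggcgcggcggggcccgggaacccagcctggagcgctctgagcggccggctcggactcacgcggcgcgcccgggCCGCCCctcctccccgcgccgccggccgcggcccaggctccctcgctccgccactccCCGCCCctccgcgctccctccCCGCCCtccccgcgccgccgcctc

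All 5 are rich in G and C, from 69.6% in USP38 and USP49 to 78% in USP46, and hold GC boxes. The GC box occurs 4 times each in USP49, USP38 and USP46, 2 times in the stretch of USP53 and 1 time in USP13. Members higher and lower in GLE therefore share this element. Over 250-base windows at any listed start, a GC box was found for 28 of the 33 members (84.8%), beside 75.3% of 8923 measured genes and 42.6% of all 35116 windows. Here and below, members and measured genes were scored per gene, and the share of all windows per window. Only the shares of members and measured genes therefore compare like with like. A CCAAT box was found for 12 members (36.4%, beside 42.4% of measured genes and 32% of all windows), and an ETS site for 10 (30.3%, beside 20.3% and 8.52%). The NRF1 motif GCATGCGC was found for 3, USP53 among them (9.09%, beside 6.11% and 2.63%), and the heat shock motif GAANNTTC for 1 (3.03%, beside 5.79% and 5.78%). The E-box CACGTG and the TATA box TATAAA were found for 2 members each, beside 11.7% and 7.72% of measured genes, and in 6.34% and 10.7% of all windows. Searches for the cyclic AMP element TGACGTCA, the ATF4 element TGATGNAA and the AP-1 site TGANTCA gave 0 members, where 3.71%, 2.26% and 5.61% of measured genes and 1.65%, 3.14% and 6.57% of all windows held them. All motifs were searched on both strands, the printed matches do not overlap, and a match is one of letters only.

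**Figure D2:**
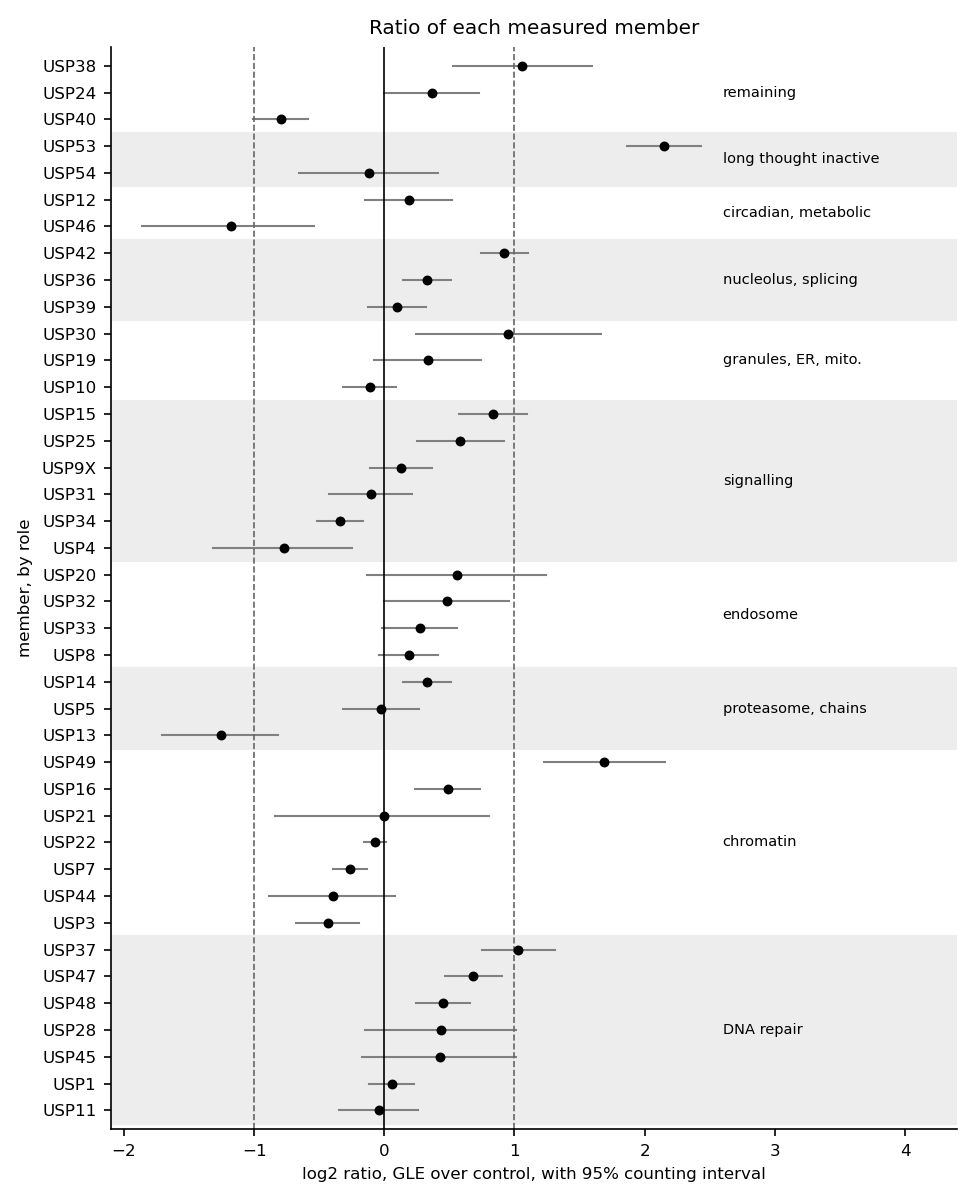
Log2 ratio of GLE over control for each of the 40 measured members, grouped by role, with the 95% counting interval as a line and 2-fold marked by dashes. The intervals of USP53 and USP49 lie wholly right of the upper dashed line, and those of 20 members cross 0.

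Of the 7 measured members with roles in DNA repair and replication, 6 had a ratio above 1, beside 47.3% of all genes. The interval lay above 1 for 3 of them (27.7% of all genes) and included 1 for the other four, and the median log2 ratio was 0.44. Besides USP37, USP47, which acts on a base excision repair polymerase, had 354 and 348 counts, 61.3 and 98.4 CPM, a ratio of 1.61 (1.38 to 1.87). USP48, a nuclear deubiquitinase, had 435 and 364 counts, a ratio of 1.37 (1.19 to 1.58). USP1, which takes ubiquitin off FANCD2 and PCNA, had 714 and 454 counts, 124 and 128 CPM, a ratio of 1.04 (0.922 to 1.17). The level of USP1 was thus nearly equal in both libraries. USP28 and USP45 had ratios of 1.35 (0.903 to 2.02) and 1.34 (0.889 to 2.02), and USP11 of 0.970 (0.785 to 1.20).

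The chromatin members did not move together. Of 7 measured, the interval lay above 1 for USP49 and USP16 and below 1 for USP3 and USP7. Of all genes, 27.7% had an interval above 1 and 30.1% below 1. USP16 and USP3 both remove ubiquitin from histones. USP16 had 293 and 251 counts, 50.7 and 71.0 CPM, a ratio of 1.40 (1.18 to 1.66), while USP3 had 452 and 205 counts, 78.2 and 58.0 CPM, a ratio of 0.741 (0.625 to 0.876). USP7, which stabilises the p53 ligase MDM2, had 1447 and 739 counts, 250 and 209 CPM, a ratio of 0.835 (0.763 to 0.913). USP44 had a ratio of 0.761 (0.540 to 1.06) and USP21 of 0.999 (0.560 to 1.74). USP22, the catalytic subunit of the SAGA deubiquitinase module, had the most counts of the family, 3117 and 1819, and with them the narrowest interval, a ratio of 0.954 (0.900 to 1.01).

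Among members that work on free chains and at the proteasome, USP14 and USP13 lay on opposite sides. USP14, which is bound to the proteasome, had 567 and 435 counts, 98.1 and 123 CPM, a ratio of 1.25 (1.10 to 1.42). USP5, which dismantles unanchored ubiquitin chains and is the closest relative of USP13, had 263 and 158 counts, 45.5 and 44.7 CPM, a ratio of 0.982 (0.801 to 1.20). The 4 measured endosomal and traffic members all had ratios above 1, beside 47.3% of all genes. Each of their intervals included 1, as did those of 4669 of the 11068 measured genes. They were USP8, the endosomal deubiquitinase of growth factor receptors, at 1.14 (0.972 to 1.33), USP33 at 1.21 (0.987 to 1.47), USP32 at 1.39 (0.999 to 1.94) and USP20 at 1.47 (0.911 to 2.37).

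Signalling members spanned both directions. USP15, which acts on SMAD proteins, had 237 and 259 counts, 41.0 and 73.2 CPM, a ratio of 1.79 (1.49 to 2.14). USP4, which acts on the TGF-beta receptor, had 117 and 42 counts, 20.2 and 11.9 CPM, and was 1.70-fold lower (1.19 to 2.49). USP25 had 157 and 144 counts, a ratio of 1.499 (1.19 to 1.89). USP34, which acts on axin in the Wnt pathway, had 825 and 399 counts, 143 and 113 CPM, a ratio of 0.790 (0.700 to 0.892). USP9X, known for stabilising MCL1, had a ratio of 1.09 (0.928 to 1.29), and USP31 of 0.931 (0.745 to 1.16).

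Organelle members were mostly near 1 apart from USP30. USP30, which sits on the mitochondrial outer membrane and opposes the removal of damaged mitochondria, had 33 and 39 counts, 5.71 and 11.0 CPM, a ratio of 1.93 (1.18 to 3.17). USP10, a stress granule partner of G3BP proteins, had 542 and 307 counts, a ratio of 0.926 (0.802 to 1.07), and USP19, anchored in the endoplasmic reticulum, a ratio of 1.26 (0.948 to 1.67). In the nucleus, USP42 had 476 and 552 counts, 82.4 and 156 CPM, a ratio of 1.89 (1.67 to 2.15). USP36, a nucleolar deubiquitinase, had 566 and 434 counts, a ratio of 1.25 (1.10 to 1.42). USP39, a splicing factor without protease activity, had a ratio of 1.07 (0.918 to 1.25).

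Of the members without a role above, USP40 stood lowest, with 692 and 244 counts, 120 and 69.0 CPM, and was 1.74-fold lower (1.5 to 2.02). USP24 had 146 and 115 counts, a ratio of 1.29 (0.999 to 1.65). At a bound of 1.5-fold, 8 members (20%) were higher, beside 19.3% of all genes, and 4 (10%) were lower, beside 21.9%. The 8 were USP53, USP49, USP38, USP37, USP30, USP42, USP15 and USP47, and the 4 were USP13, USP46, USP40 and USP4.

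**Figure D3:**
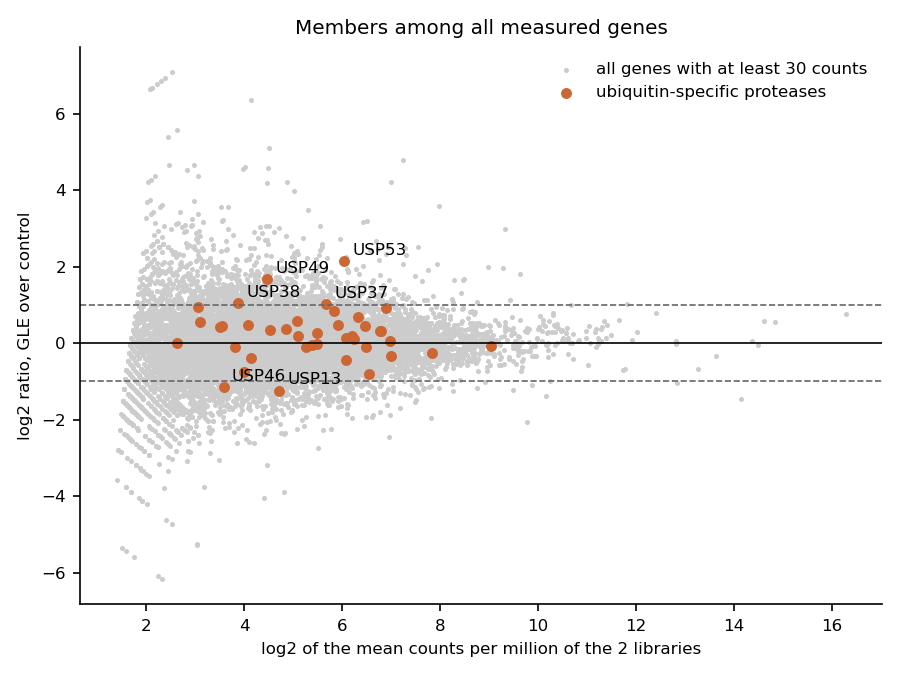
Log2 ratio of GLE over control against the log2 mean CPM of both libraries for all 11068 genes with at least 30 counts (grey) and the 40 measured members (orange), with 2-fold marked by dashes. The 6 named members lie beyond 2-fold, and the rest lie inside the grey cloud between the dashes.

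Some close relatives had separate counting intervals and others did not. How often pairs of unrelated genes have separate intervals was not computed, so these gaps are not read as a trait of relatives. USP53 had a ratio of 4.42 while its relative USP54 had 85 and 48 counts and a ratio of 0.923 (0.634 to 1.33), and their intervals did not overlap. USP5 and USP13, at 0.982 and 0.420, also had separate intervals, as did USP12 and USP46, at 1.14 (0.903 to 1.43) and 0.443 (0.275 to 0.689). In the trio of USP4, USP11 and USP15, the interval of USP15 lay above those of USP4 and USP11, which overlapped. The ratio of USP15 was 3.04 times that of USP4. USP42 lay above USP36, with separate intervals. The pairs USP25 and USP28, and USP20 and USP33, had overlapping intervals. In the group of USP3, USP16, USP44, USP45 and USP49, the interval of USP49 lay above all others. There the intervals of USP3 and USP44, of USP16 and USP45, and of USP44 and USP45 overlapped, and those of the remaining pairs did not. Pairs were set side by side without a test, and no replicate shows how far such gaps vary between cultures.

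Members with few reads gave counts but no call. USP2, a deubiquitinase with a daily rhythm in many tissues, had 1 control and 18 GLE counts, 0.173 and 5.09 CPM, a ratio of 29.4 with an interval of 4.64 to 1226. USP27X, a relative of USP22, had 9 control and 0 GLE counts, and USP43 had 7 and 0. A count of 0 allows up to 0.519 CPM (control) or 0.848 CPM (GLE), from a floor of 3 counts. USP18, which removes the ubiquitin-like ISG15 and is induced by interferon, had 16 and 10 counts, a ratio of 1.02 (0.414 to 2.39), and USP35 had 18 and 7, a ratio of 0.635 (0.224 to 1.59). USP29 had 0 and 1 and USP50 had 1 and 0. At this depth a difference of 2-fold in USP18 or USP35 was not detectable.

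Some members share the last 2000 bases of their locus with another gene in GENCODE 29. The strand setting of the counting is not given, so reads from both strands there cannot be told apart. TOMM6 lies on the strand opposite USP49 and had 1491 and 931 counts, a ratio of 1.02. VIL1 lies opposite USP37, with 1104 and 461 counts and a ratio of 0.682, and THOC1 opposite USP14, with 156 and 194 counts and a ratio of 2.03. On the same strand as USP4, C3orf62 had 43 and 12 counts, a ratio of 0.456. AHSA2P lies opposite USP34, with 210 and 73 counts and a ratio of 0.568. No gene of that annotation overlapped this stretch of USP53, USP13, USP46, USP38 or USP42. The part of these neighbours in the members' counts was not tested.

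Other deubiquitinase families were set beside the USPs for comparison, without a test of the difference. The lists follow protein family, and not every listed gene, for example USPL1 or PAN2, is known to remove ubiquitin. Of 38 genes in 6 lists, 30 were measured, with 8 at least 2-fold higher, 2 lower and a median log2 ratio of 0.44, beside 0.23 for the USPs. Their shares of 26.7% higher and 6.67% lower stand beside 9.54% and 10.5% of all genes. USPL1 and CYLD, which carry the USP fold under another name, had ratios of 3.51 (2.47 to 5.05) and 2.83 (1.97 to 4.12). In the OTU family OTUD3 had a ratio of 3.32 (2.46 to 4.51), ZRANB1 of 2.48 (2.07 to 2.97) and OTUD7B of 2.42 (2.0 to 2.94), and YOD1 was 2.06-fold lower (1.5 to 2.88). ZUP1, a protease for long chains, had 42 and 129 counts, a ratio of 5.02 (3.52 to 7.29), MINDY3 a ratio of 2.52 (1.81 to 3.51) and MINDY2 of 2.32 (1.79 to 3.01), and MINDY1 was 2.26-fold lower (1.20 to 4.55). The UCH, Josephin and JAMM lists had 0 of 4, 0 of 2 and 0 of 6 measured genes beyond 2-fold. The JAMM median was -0.04, the value over all genes.

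**Figure D4:**
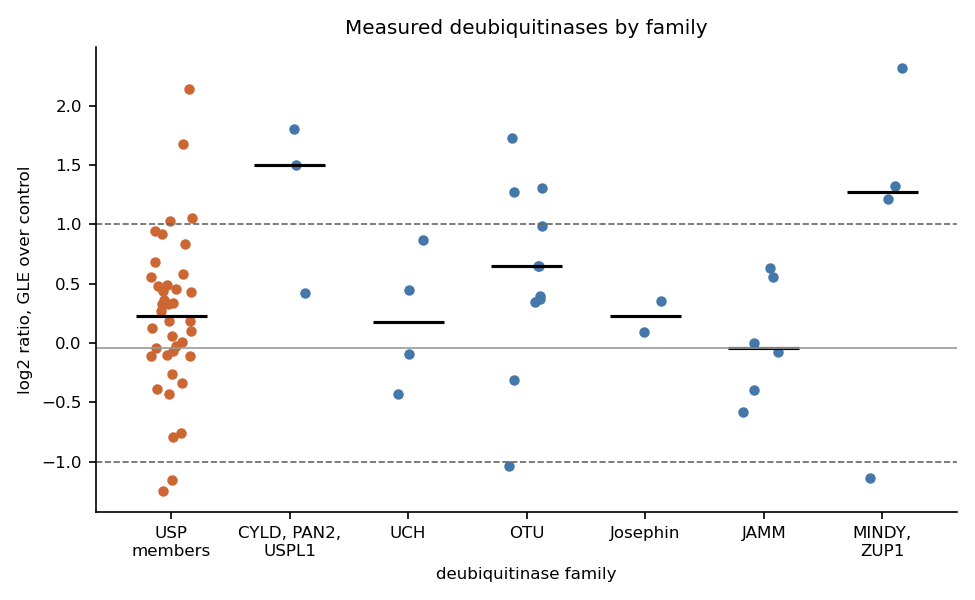
Log2 ratio of GLE over control for measured genes of the deubiquitinase families, 1 point per gene. The family median is a black bar, 2-fold is dashed and the median of all genes is a grey line. Not every gene shown is known to remove ubiquitin. The USP median of 0.23 lies above the all-gene median of -0.04 and below the OTU median of 0.65.

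Partners of single USPs also lay on both sides. WDR20, a cofactor of USP12 and USP46, had 59 and 100 counts, a ratio of 2.77 (1.99 to 3.89), while WDR48, which also serves USP1, had a ratio of 0.931 (0.631 to 1.36) and USP46 itself was lower. ATXN7L3, which USP22 needs for activity in SAGA, had 442 and 126 counts and was 2.15-fold lower (1.76 to 2.64), beside a ratio of 0.954 for USP22. It was the only one of 4 measured module genes beyond 2-fold, beside 9.54% of all genes higher and 10.5% lower. Around USP7, 4 of 5 measured genes had intervals below 1, beside 30.1% of all genes, among them MDM2 at 0.700 (0.604 to 0.808) and DNMT1 at 0.679 (0.627 to 0.735). UHRF1, the only one beyond 2-fold, was 3.88-fold lower (1.90 to 8.91).

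Around USP8, the ESCRT partners HGS, STAM2 and STAM had ratios of 1.86 (1.57 to 2.21), 1.60 (1.22 to 2.11) and 1.38 (1.09 to 1.73), and the ligase RNF41 was 1.85-fold lower (1.37 to 2.52). The FANCD2 and PCNA genes served by USP1 had 0 of 5 beyond 2-fold, with ATAD5 highest at 1.71 (1.45 to 2.02). HERC5, the ISG15 ligase, had a ratio of 2.25 (1.39 to 3.66), beside 1.10 (0.774 to 1.54) for ISG15. Of the mitophagy genes around USP30, 0 of 3 measured were beyond 2-fold, with PINK1 at 1.14 (0.857 to 1.5), and neither stress granule partner of USP10 was. Of all genes, 9.54% were at least 2-fold higher and 10.5% lower, so a count of 0 in such short lists says little about these partners. UBB, which encodes a chain of ubiquitin units, had 4373 and 3511 counts, a ratio of 1.31 (1.25 to 1.37). The activating enzyme UBA1 had a ratio of 0.859 (0.731 to 1.01).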

How the data were processed

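The authors deposited raw read counts per gene symbol, 1 table per library, as whole numbers without normalization. Per the labels' protocols, 500 ng of total RNA per library was prepared with a Lexogen QuantSeq kit, which reads 3′ ends. The submitters' processing notes name fastp, STAR, HTSeq and GRCh38. Versions, gene annotation and strand setting were not given in the sources used here. Members and lists were chosen with earlier results of these data known.

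Library sizes were adjusted with TMM factors (trimmed mean of M-values) from edgeR 4.0.16 under R 4.3.3, which were 1.03 for the control and 0.972 for GLE. Genes with at least 30 counts over both libraries were measured. Log2 ratios had 0.5 added to each count, and ratios and Clopper-Pearson intervals had nothing added. The reads carry no molecular identifiers and so are not independent molecules: intervals and floors cover counting error only. A gene at 0 in 1 library was called against a floor of 3 counts. The computation was tested on simulated data. All members were given, with counts and CPM where at least 1.5-fold different, and partner genes where at least 2-fold different, with others chosen after their values were seen. Gene positions and promoters came from RefSeq (GRCh38.p14), neighbours, transcript length and GC content from GENCODE 29. Other settings were DESeq2 1.42.0 size factors and those listed in the closing section. Scripts ran under Python 3.11.15 with statsmodels 0.14.6 for trends, SciPy 1.17.1 for intervals and matplotlib 3.10.9 for figures. Some genes of the lists are not reported here.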

Additional observations from a re-analysis of the deposited data

How the results depend on the processing

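The count of members at least 2-fold higher, 4 as reported, was 2 with scaling by total counts, 2 with the GC trend removed and 2 when the whole interval had to lie beyond 2-fold. USP49 and USP53 were the members that passed in each of these. The count of members at least 2-fold lower, 2 as reported, was 1 with the trend over mean log2 CPM removed, when USP46 no longer passed, and 0 for the whole interval. That trend removal gave 6 members higher, and it called 13.3% of all genes higher and 7.24% lower. The all-gene shares were 8.26% and 12.2% with total counts, and 8.78% and 8.56% with the GC trend removed. At 1.5-fold the counts were 8 and 4. The remaining settings kept both counts within 1.5 times. These were DESeq2 size factors, upper-quartile factors, a centred median, totals without the 20 most abundant and mitochondrial genes, minimums of 10, 100 and 1 counts, 2 added to each count and thinning of the control library.

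The median log2 ratio of the members ran from 0.15 with total counts to 0.30 with the CPM trend removed, and the median of all genes from -0.12 to 0.06 in the same settings. Their difference was 0.27 under each scaling by a single factor, where it could not change because such a factor shifts both medians alike. In the settings that could change it, the difference ran from 0.17 with the GC trend removed to 0.28 with the control library thinned. It was 0.19, 0.23 and 0.22 at minimums of 1, 10 and 100 counts. Ratios of the 12 members beyond 1.5-fold stayed inside their own counting intervals in 143 of 143 recomputed values. Part of this was fixed in advance, because a minimum count cannot change a ratio. A single scaling factor moves all ratios alike, and here by less than the intervals reach. The count of 143 is therefore no measure of robustness. The cause of these shifts was not tested. No paired analysis was possible because each group has 1 library.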

Other observations

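USP symbols that are not members held few counts. The 27 USP17L copies had 0 counts in both libraries. The 3 USP32 pseudogenes had 76 control and 37 GLE counts together, of which USP32P2 had 57 and 22, beside 82 and 70 for USP32 itself. Reads of near-identical copies can be split or left out in counting, so the ratio of USP32 carries that uncertainty. For the same reason, the 0 counts of the USP17L copies do not show that these were silent. The 9 antisense and divergent transcripts beside USP genes summed to 10 and 6 counts. USP6NL, a gene unrelated in function that carries the USP6 name, had 93 and 62 counts, a ratio of 1.09.

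By median, the measured members had longer and more AT-rich transcripts than all measured genes, although single members lay on the other side. Their longest coding transcripts in GENCODE 29 had a median length of 5281 bases, beside 3519 over 10125 measured genes with one, and a median GC content of 44.3%, beside 47.8%. Their genes spanned a median of 80124 bases, beside 30374. Across the 40 members the log2 ratio had a Pearson correlation of -0.20 and a Spearman correlation of -0.26 with GC content, and across the 10125 genes of -0.16 and -0.18. With the log2 of transcript length the Pearson correlation was 0.10 across members and -0.03 across genes. These correlations are across genes of the same library pair, which are not independent replicates.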
